A study of Mus musculus with 4 samples.

Results

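The 9 genes described here are the core of the Hedgehog pathway: the ligands Ihh, Shh and Dhh, the receptor Ptch1, the ligand-binding antagonist Hhip, the signal transducer Smo, and the transcription factors Gli1, Gli2 and Gli3. They were chosen by name, with earlier results of these data known. They were matched by Ensembl identifier among the 30406 genes that all libraries list, and 9 of 9 were found. Their molecules were counted in dissociated cells of the mouse common bile duct, in 1 library labelled Prom1_BcatGOF (here GOF, in which Ctnnb1, encoding beta-catenin, carries a gain of function in a mosaic) and in 3 wild-type libraries (WT 1, WT 2 and WT 3), none of them treated. Mosaic means that only some cells carry the change; the labels do not describe the construct, say which cells recombined, or give the animals' age. They also do not say whether each library came from its own animal, so p-values measure the spread between these libraries, which may be technical, and the lone GOF library is assumed to vary like the WT libraries.

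Hedgehog ligands are secreted proteins that bind Ptch1 on receiving cells. Without ligand Ptch1 holds Smo inactive; with ligand Smo is released and the Gli factors switch on target genes. Gli1, Ptch1 and Hhip are themselves targets, so their transcripts are commonly read as signs of a responding cell, while Gli2 is mainly an activator and Gli3 mainly a repressor. In the gut and other lined organs the usual arrangement is paracrine, with epithelium making ligand and the mesenchyme beneath it responding. Dhh is best known from Schwann cells, testis and endothelium.

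Levels are unique molecular identifiers (UMIs, counted molecules) of a gene relative to all UMIs of a cell type in a library, written CPM, and are compared between samples or cell types, never between genes. Cells were assigned to a type where at least 3 of its 6 marker genes had a UMI, with a margin of 2 over other types. No margin was asked of tuft cells over epithelium, of mesothelium or smooth muscle over fibroblasts, of lymphatic over blood endothelium, or of dendritic cells over macrophages. Thus 124 of 125 mesothelial cells of WT 1 and 82 of 180 smooth muscle cells of GOF had 2 or more fibroblast markers. The GOF library was deeper than the WT libraries, with a median of 7038.5 UMIs per barcode against 1933 to 3690, and had a lower median mitochondrial share, 2.99% against 10.1% to 14.8%. It gave 4439 epithelial cells and 467 fibroblasts, while the WT libraries gave 938 to 2879 epithelial cells and 92 to 199 fibroblasts. All 6 epithelial markers (Epcam, Cdh1, Cldn4, Cldn7, Elf3 and Krt19) were present in the epithelial cells of each library. No cell passed the Schwann or mast cell gate. Pairs of libraries shared 5 to 19 barcodes, at most 0.378% of the smaller library. A part of the fibroblast gate also carried markers of mesothelium, the outer lining of the duct: 225 of 467 cells in the GOF library, and 13 of 92, 113 of 191 and 26 of 199 cells in WT 1, WT 2 and WT 3. Where stated, results on fibroblasts are therefore also given without those cells, a division made after seeing the data. All other fibroblast results, among them those of the pathway lists, are for the whole gate only. WT 3 stood apart by pancreatic acinar transcripts, with 1622 CPM summed over 6 acinar markers in its epithelial cells against 206 CPM in GOF and 323 and 289 CPM in WT 1 and WT 2. In its fibroblasts the same sum was 2966 CPM, against 21.7 CPM in GOF and 188 and 72.1 CPM in WT 1 and WT 2; the part of this in the WT 3 values was not tested.

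**Figure D1:**
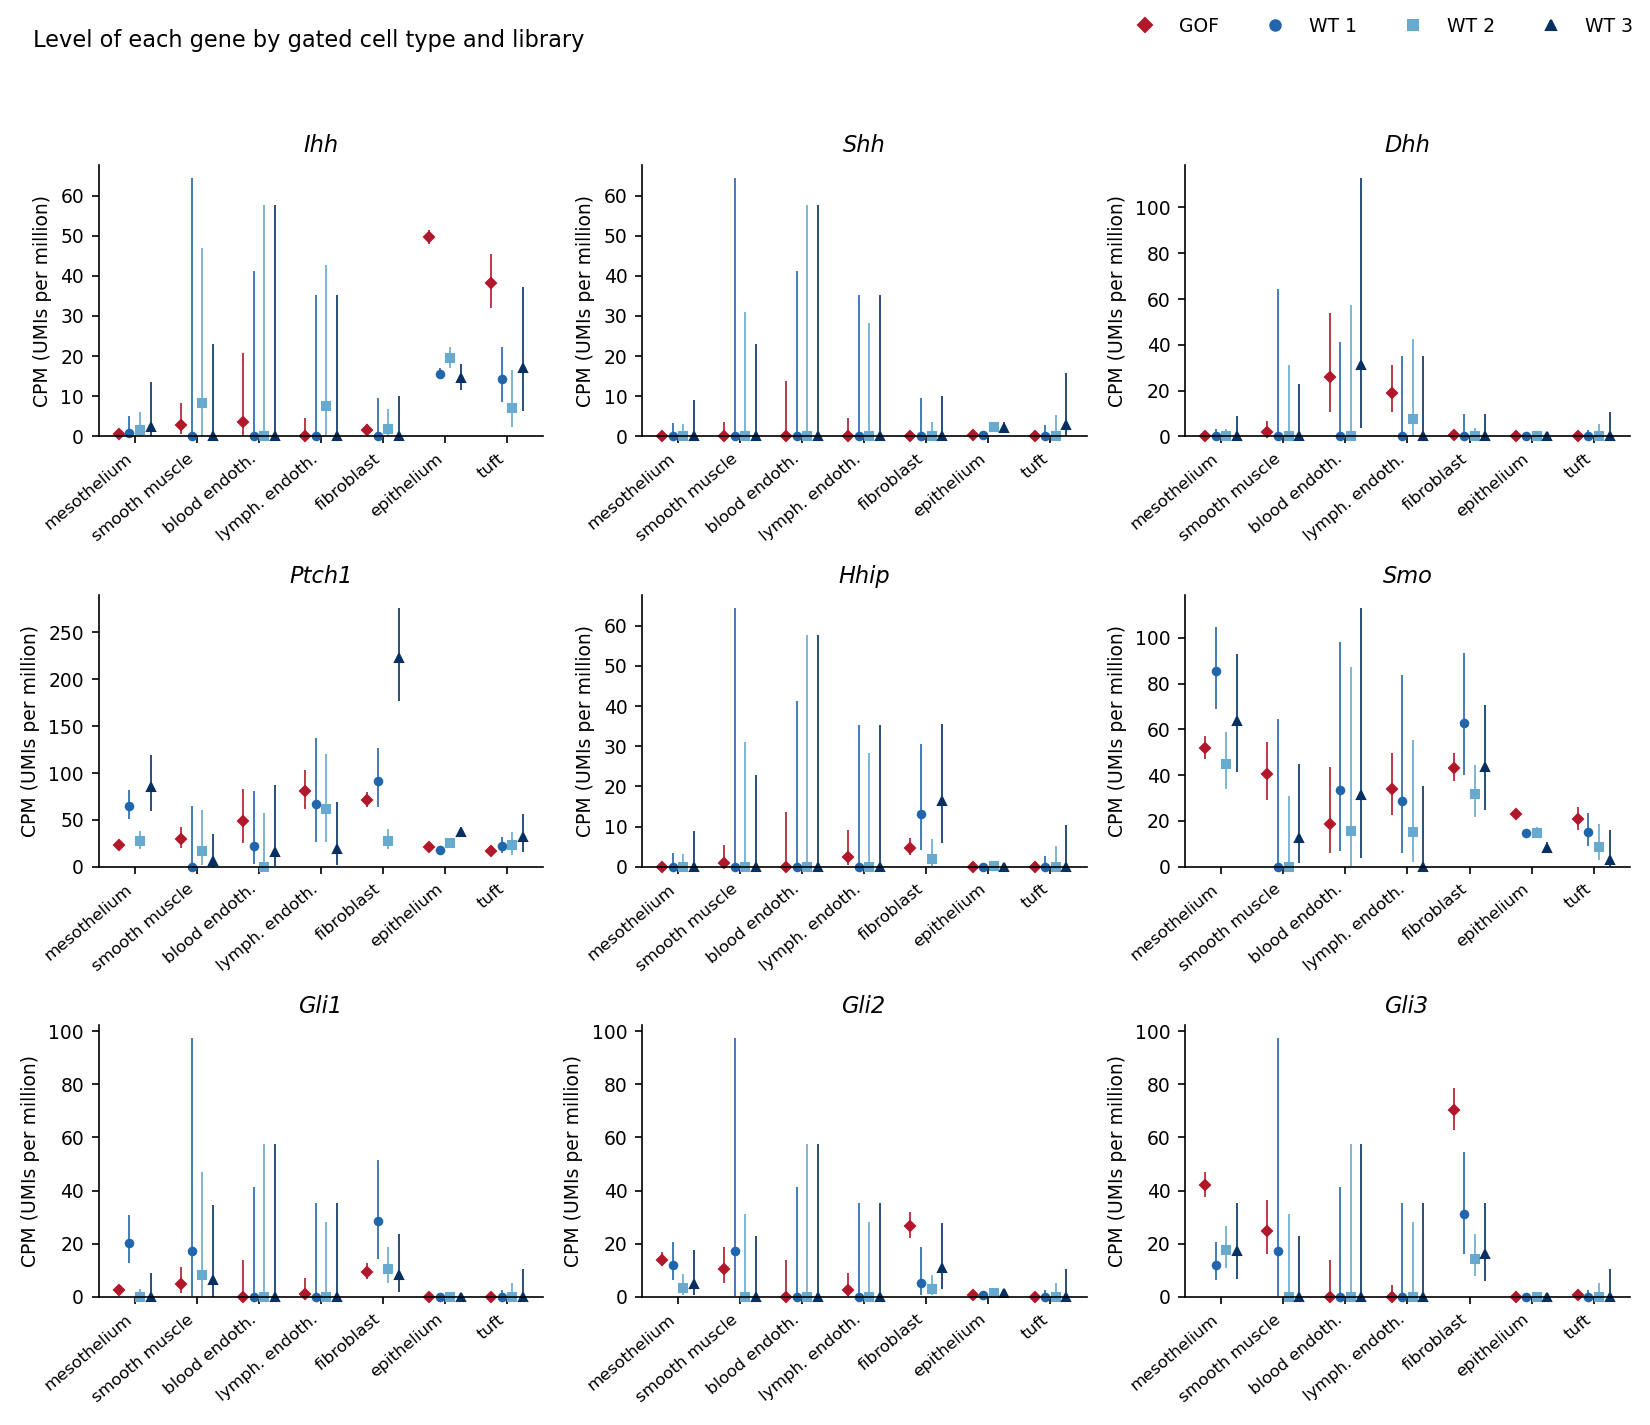
Level of each of the 9 genes in 7 gated cell types, in CPM of that type and library, with exact Poisson 95% intervals that cover counting error only; red diamonds are the GOF library and blue symbols the WT libraries. Ihh was highest in epithelium and tuft cells, Gli1 and Hhip were at or near 0 there, and intervals are wide where few cells were captured.

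Ihh, the Indian hedgehog ligand, was the ligand with most UMIs in the epithelium in these libraries. In WT fibroblasts 0, 2 and 0 Ihh UMIs were counted in WT 1, WT 2 and WT 3, against 525, 212 and 85 UMIs in the epithelial cells of the same libraries, which is 0, 1.92 and 0 CPM against 15.6, 19.5 and 14.6 CPM. No WT fibroblast value came near an epithelial one. Fibroblasts minus epithelium came to a log2 difference of -4.02 (SE 0.70, edgeR adjusted p 0.00151); pooled over the WT libraries, the fibroblast level was 0.0685 of the epithelial one (95% counting interval 0.00828 to 0.248). Tuft cells, a chemosensory epithelial type, held 14.3, 7.11 and 17.1 CPM of Ihh in WT 1, WT 2 and WT 3. Their WT mean was 12.8 ± 5.14 CPM, against 16.6 ± 2.60 CPM in the other epithelial cells (SD, n = 3 each), and the ranges of the libraries overlapped. Next in order of pooled WT level came smooth muscle with 1 UMI and lymphatic endothelium with 1 UMI, then mesothelium with 4 UMIs over the WT libraries.

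Ihh was higher in GOF than in WT epithelium. It reached 49.6 CPM in the GOF library (2907 UMIs), against 15.6, 19.5 and 14.6 CPM in WT 1, WT 2 and WT 3. The GOF value lay above every WT value, and the WT libraries lay close together. The GOF minus WT log2 difference was 1.22 (SE 0.21, edgeR adjusted p 0.0197), in a comparison in which 14.6% of all tested genes passed the adjusted threshold of 0.05. This estimate is scaled by TMM (a correction that centres most genes at no change); on plain CPM the difference was 1.58. With 1 WT library left out the adjusted p was 0.0302 without WT 1, 0.0738 without WT 2 and 0.0605 without WT 3, so the call rests on WT 2 and on WT 3 being included.

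The same held for the share of cells in which Ihh was seen. With every cell thinned to 2000 UMIs, 9.05% of GOF epithelial cells had an Ihh UMI (370 of 4089 cells, exact 95% interval 8.19 to 9.97%). In WT 1, WT 2 and WT 3 the shares were 2.98%, 3.88% and 2.79%, and their intervals, 1.71 to 5.13% in all, did not reach the GOF interval. Free RNA in the droplets can give stray UMIs, and fibroblasts, which should lack the gene, had an Ihh UMI in 0.254% of thinned GOF cells (1 of 394) and in 0 of 78, 0 of 142 and 0 of 57 thinned WT cells, with the median depth at 8093 UMIs in GOF fibroblasts and 8690 UMIs in GOF epithelium before thinning. Without thinning the epithelial shares were 33.1% in GOF and 14.1%, 11.8% and 8.42% in WT 1, WT 2 and WT 3. The highest count in 1 cell was 16 Ihh UMIs in GOF epithelium, against 5, 7 and 3 UMIs in WT 1, WT 2 and WT 3.

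Tuft cells showed the same direction. Ihh was at 38.3 CPM in GOF tuft cells (135 UMIs in 227 cells), against 14.3, 7.11 and 17.1 CPM in WT 1, WT 2 and WT 3 (19, 5 and 6 UMIs). The GOF value was again above all WT values. In tuft cells the log2 difference was 1.43 (SE 0.41, edgeR adjusted p 0.0241), where 15.6% of all tested genes were called. DESeq2 gave an adjusted p of 0.467, the stricter gate 0.251, and the fit without WT 2 0.326.

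Within epithelium, Ihh was set against direct Wnt target genes, whose transcripts mark cells with active beta-catenin. Of GOF epithelial cells, 2136 had a UMI of Axin2, Nkd1, Notum, Lgr5 or Sp5 and 2303 had none. Ihh was at 55.9 CPM (counting interval 53.6 to 58.3) in the target-positive GOF cells and at 37.1 CPM (34.5 to 39.9) in the target-negative ones. Both GOF values exceeded those of WT target-positive cells (18.4, 18.0 and 16.0 CPM in WT 1, WT 2 and WT 3) and of WT target-negative cells (15.3, 19.8 and 14.4 CPM). In the WT libraries the intervals of the target-positive and target-negative cells overlapped. These are values of single libraries with no test; target-positive GOF cells were also deeper, with a median of 11670 UMIs against 7146, and the part of depth was not tested.

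**Figure D2:**
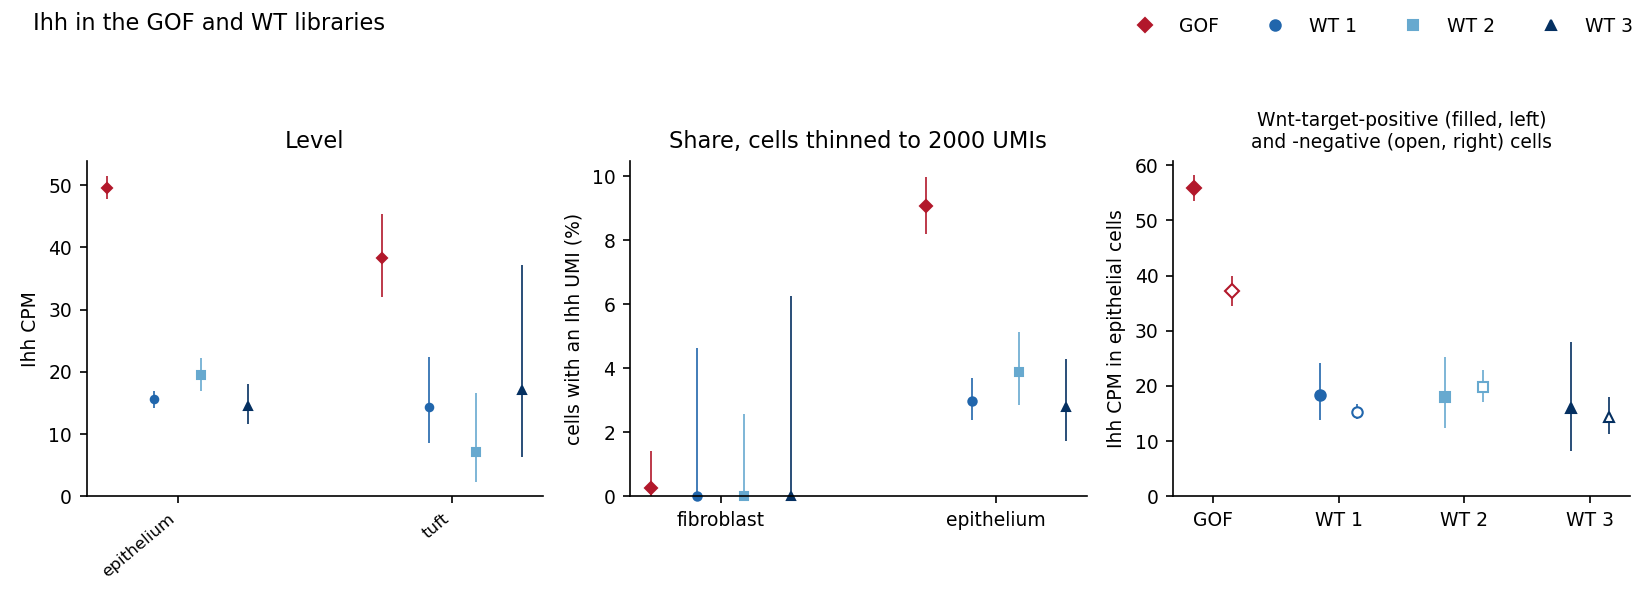
Ihh in the GOF library (red) and the WT libraries (blue): CPM in epithelium and tuft cells, the percentage of cells with an Ihh UMI after thinning each cell to 2000 UMIs, and CPM in epithelial cells with (filled) and without (open) a UMI of a Wnt target gene. Bars are exact 95% counting intervals; GOF epithelium sits at 49.6 CPM, above the WT range of 14.6 to 19.5 CPM.

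Epithelial cells with at least 2 of the mucous gland genes Muc6, Gkn3, Tff2 and Pgc were set against the other epithelial cells of the same library. Ihh was at 51.9, 16.7, 22.3 and 11.9 CPM in gland mucous cells of GOF, WT 1, WT 2 and WT 3, against 45.0, 15.2, 17.1 and 16.7 CPM in the other epithelial cells of those libraries. The gland value was higher in 3 of 4 libraries and lower in WT 3. Gland minus other epithelium gave a log2 difference of 0.13 (SE 0.12, edgeR adjusted p 0.788), and 0 of the 4 genes tested here (Ihh, Shh, Smo and Ptch1) passed, where 0.952% of all tested genes did.

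The Ihh promoter is shown because Ihh was the gene whose level differed in the GOF library. It is the RefSeq window from 250 bases before to 50 bases after the transcript start, at chr1:74951623-74951922 on the minus strand of GRCm38.p6; the gene itself spans chr1:74945315-74951672. Capitals mark CCACCC, the core of the Gli binding motif, or its reverse complement GGGTGG.
Ihh promoter: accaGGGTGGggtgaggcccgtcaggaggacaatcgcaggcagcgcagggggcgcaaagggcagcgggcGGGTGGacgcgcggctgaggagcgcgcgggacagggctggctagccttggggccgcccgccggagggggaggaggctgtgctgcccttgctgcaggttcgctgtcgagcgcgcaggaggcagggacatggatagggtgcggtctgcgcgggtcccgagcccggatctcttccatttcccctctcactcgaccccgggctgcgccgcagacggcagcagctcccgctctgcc
The window holds the core at 2 places and has a GC content of 72.7%, against a median of 53% over 32544 promoters of this length. The core is common, in 31.6% of those promoters. The Tcf motif CTTTGAT (reverse complement ATCAAAG), through which beta-catenin acts at many targets, was not among these letters on either strand, and 3.73% of all promoters hold it.

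Shh, the sonic hedgehog ligand, was sparse and seen almost wholly in epithelium. It had 23 UMIs in GOF epithelium (0.392 CPM) against 14, 26 and 12 UMIs in WT 1, WT 2 and WT 3 (0.415, 2.39 and 2.06 CPM). The GOF value lay just below that of WT 1 and well below the other WT values. GOF minus WT gave a log2 difference of -2.31 (SE 1.19, edgeR adjusted p 0.228), which did not pass. No fibroblast, mesothelial, smooth muscle, endothelial or macrophage cell in any library had a Shh UMI; no fold is given for fibroblasts, since the epithelial level was itself below their floor of 3 counts. Shh was found beside Ihh in 14 of 22 Shh-positive GOF epithelial cells and in 3 of 10, 10 of 23 and 3 of 12 such cells of WT 1, WT 2 and WT 3.

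Dhh, the desert hedgehog ligand, had few UMIs, and most of those in the GOF library were endothelial. Blood endothelial cells held 7 Dhh UMIs in GOF and 0, 0 and 2 in WT 1, WT 2 and WT 3, from 66 GOF cells and 29, 25 and 34 WT cells. Lymphatic endothelial cells held 15 Dhh UMIs in GOF and 0, 1 and 0 in WT 1, WT 2 and WT 3. The GOF lymphatic level was 18.9 CPM against 0, 7.65 and 0 CPM; the pooled ratio, GOF over WT, was 6.43 with a counting interval of 0.989 to 270.5 that includes 1. Dhh was too low to be tested in either type, where 12.1% (blood) and 17.9% (lymphatic) of tested genes were called. Epithelium held 5 Dhh UMIs in GOF and none in WT, and fibroblasts, mesothelium and smooth muscle held 2 each in GOF and none in WT. In WT most Dhh UMIs lay outside the gated types: ungated cells held 2 in GOF and 1, 0 and 6 in WT 1, WT 2 and WT 3.

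Ptch1, the receptor and itself a Hedgehog target, had its highest WT mean in fibroblasts. Lymphatic endothelium was above fibroblasts in the GOF library (80.6 against 71.5 CPM) and in WT 2 (61.2 against 27.9 CPM), and WT neutrophils held 0 UMIs. WT fibroblasts held 91.3, 27.9 and 222.5 CPM of Ptch1 in WT 1, WT 2 and WT 3 (35, 29 and 82 UMIs), against 18.1, 25.7 and 36.7 CPM in WT epithelium (609, 280 and 214 UMIs). The fibroblast value was above the epithelial one in each library, by little in WT 2. On the log2 scale fibroblasts exceeded epithelium by 1.69 (SE 0.41, edgeR adjusted p 0.00978). Of the 9 genes, 5 passed the filter on low counts here, 4 of them were higher in fibroblasts and 1, Ihh, was lower, in a comparison in which 31.4% of all tested genes were called, 15.9% higher and 15.6% lower. Among fibroblasts without mesothelial markers Ptch1 stood at 106, 111 and 275 CPM in WT 1, WT 2 and WT 3. The log2 difference from epithelium became 2.42 (SE 0.23, edgeR adjusted p 9.33e-07). That split was made after seeing the data and left out cells with less Ptch1 (50.2, 8.31 and 47.3 CPM), so its p-value is descriptive only. Below fibroblasts, at 113.9 ± 99.3 CPM, the WT means stood in the order mesothelium (59.3 ± 29.4 CPM), lymphatic endothelium (49.1 ± 26.1 CPM), epithelium (26.8 ± 9.36 CPM), tuft cells (25.3 ± 5.20 CPM), blood endothelium (12.7 ± 11.5 CPM), smooth muscle (7.68 ± 8.51 CPM) and macrophages (5.84 ± 3.55 CPM; SD, n = 3 each). The SDs are wide. Of the neighbours in this order, the means of tuft cells and blood endothelium alone lay further apart than both of their SDs. Blood endothelium and smooth muscle rested on 3 WT UMIs each. Left out of the order were T, NK and innate lymphoid cells and B cells, with 1 WT UMI each, and acinar cells, with 3 UMIs.

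Hhip, which binds and sequesters the ligands, was nearly limited to fibroblasts. Fibroblasts held 5, 2 and 6 Hhip UMIs in WT 1, WT 2 and WT 3, against 0, 1 and 0 UMIs in epithelium and its far larger totals. Over the WT libraries the fibroblast level was 7.25 CPM and the epithelial one 0.0198 CPM, a ratio of 366 with a counting interval of 54.9 to 15540 that rests on 1 epithelial UMI. Hhip did not pass the filter on low counts; with no filter edgeR gave an adjusted p of 5.85e-06. Mesothelium held 0 Hhip UMIs in all 4 libraries. Set at a floor of 3 counts over the group, the WT mesothelial level was 6.5-fold lower than that of WT fibroblasts. That figure takes the few fibroblast UMIs as exact, so it is not a lower bound. In WT 2 alone no fold can be given, since its fibroblast level of 1.92 CPM was below the mesothelial floor of 2.50 CPM.

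The Ptch1 and Hhip promoters are shown because both genes are known feedback targets of the Gli factors and were higher in WT fibroblasts than in WT epithelium. The windows are as for Ihh, at chr13:63565686-63565985 and chr8:80057959-80058258, both on the minus strand of GRCm38.p6, with the core motif in capitals.
Ptch1 promoter: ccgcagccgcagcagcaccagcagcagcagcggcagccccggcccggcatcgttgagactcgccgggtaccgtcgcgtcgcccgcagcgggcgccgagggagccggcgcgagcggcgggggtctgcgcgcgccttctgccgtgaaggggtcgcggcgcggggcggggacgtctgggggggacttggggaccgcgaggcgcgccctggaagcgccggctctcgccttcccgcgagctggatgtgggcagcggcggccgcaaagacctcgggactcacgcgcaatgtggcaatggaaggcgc
Hhip promoter: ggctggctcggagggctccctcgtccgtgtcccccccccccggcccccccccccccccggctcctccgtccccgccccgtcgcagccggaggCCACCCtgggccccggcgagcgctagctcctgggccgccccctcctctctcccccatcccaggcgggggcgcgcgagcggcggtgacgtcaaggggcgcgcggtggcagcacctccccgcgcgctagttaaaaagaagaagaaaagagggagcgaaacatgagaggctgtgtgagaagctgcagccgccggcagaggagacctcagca
The Ptch1 window is that of a start inside the gene, which spans chr13:63508328-63573598, so other starts of Ptch1 lie upstream of it. The core occurs at 1 place in the Hhip window and at none in the Ptch1 window. The full motif GACCACCCA (reverse complement TGGGTGGTC) occurs in 0 of the 7 members' windows, and in 0.246% of all promoters. RefSeq windows of Shh and Gli1 were not used here.

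Smo, the transducer, was also higher in WT fibroblasts than in WT epithelium. It stood at 62.6, 31.7 and 43.4 CPM in fibroblasts of WT 1, WT 2 and WT 3, against 14.9, 14.9 and 8.06 CPM in epithelium. The groups did not overlap. The log2 difference was 1.75 (SE 0.30, edgeR adjusted p 0.00143). Mesothelium had 85.3, 45.0 and 63.5 CPM of Smo, above the fibroblasts of the same library in each case, but the log2 difference of 0.44 (SE 0.22, edgeR adjusted p 0.298) did not pass.

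Gli1, the factor that is itself induced by the pathway, was found in fibroblasts and, in some libraries, in mesothelium, with few UMIs in smooth muscle. Fibroblasts of WT 1, WT 2 and WT 3 held 11, 11 and 3 Gli1 UMIs (28.7, 10.6 and 8.14 CPM), against 2, 1 and 1 UMIs in epithelium (0.0593, 0.0920 and 0.171 CPM). Every fibroblast value was far above every epithelial one. The log2 difference was 7.45 (SE 0.90, edgeR adjusted p 0.000139), and the pooled ratio was 176 with a counting interval of 60.7 to 695. Smooth muscle held 1, 1 and 1 Gli1 UMIs in WT 1, WT 2 and WT 3, each below the floor of 3 counts, and 5 in GOF. The smooth muscle gate also admits cells with fibroblast markers. Mesothelium held 22, 0 and 0 Gli1 UMIs in WT 1, WT 2 and WT 3, so its WT level came from WT 1 alone. Tuft cells, blood endothelium and macrophages held 0 Gli1 UMIs in all 4 libraries.

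Gli3 and Gli2, the repressor and activator that act before Gli1, were stromal too. Gli3 had 12, 15 and 6 UMIs in fibroblasts of WT 1, WT 2 and WT 3 (31.3, 14.4 and 16.3 CPM), against 1, 0 and 1 UMIs in epithelium. The log2 difference was 8.66 (SE 0.89, edgeR adjusted p 4.57e-05), with a pooled ratio of 464 and a counting interval of 119 to 3993. Gli2 had 2, 3 and 4 UMIs in fibroblasts (5.22, 2.88 and 10.9 CPM), against 21, 16 and 8 UMIs in epithelium (0.623, 1.47 and 1.37 CPM). Each fibroblast value was above every epithelial value, but by less than for the other Gli factors: the pooled ratio was 5.63 (2.42 to 11.7). The fibroblast value of WT 1 was below its floor of 7.83 CPM and that of WT 2 was at its floor of 2.88 CPM. The WT 2 fibroblast counting interval, 0.595 to 8.43 CPM, covered the epithelial values. Gli2 was too low to be tested in the main comparison; it passed among fibroblasts without mesothelial markers (log2 difference 2.63, SE 0.81, edgeR adjusted p 0.0219), a split made after seeing the data, and in none of the other 4 fits that it entered (edgeR adjusted p 0.0519 to 0.330).

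With cells of at most 10% mitochondrial UMIs, which left 74, 150 and 62 fibroblasts and 639, 85 and 28 epithelial cells in WT 1, WT 2 and WT 3, only Ptch1 and Smo could be tested between WT fibroblasts and epithelium, and only Smo passed (edgeR adjusted p 0.0219), with Ptch1 at 0.94 (edgeR adjusted p 0.309). The other stromal types were then set against WT fibroblasts. In mesothelium 0 of 3 tested genes passed, where 9.41% of all tested genes did: Smo was given above, Gli3 differed by -0.38 (SE 0.42, edgeR adjusted p 0.701) and Ptch1 by -0.72 (SE 0.27, edgeR adjusted p 0.151). Against fibroblasts without mesothelial markers the Ptch1 difference was -1.47 (SE 0.27, edgeR adjusted p 0.00242). That split, also used for smooth muscle and endothelium below, was made after seeing the data and left out cells with less Ptch1. Its p-values are therefore descriptive only. With all fibroblasts the Ptch1 difference passed without WT 2 (-0.97, edgeR adjusted p 0.0220). In smooth muscle 0 of the 9 genes could be tested, with 20.3% of tested genes called; with the mesothelial-marked cells left out of the fibroblasts Ptch1 was lower in smooth muscle by 4.20 on the log2 scale (SE 0.61, edgeR adjusted p 0.00233). In endothelium, blood and lymphatic together, Ptch1 alone could be tested (log2 difference -1.58, SE 0.58, edgeR adjusted p 0.0752, with 27.2% of tested genes called). It passed against fibroblasts without mesothelial markers, at -2.30 (edgeR adjusted p 0.000479), and in the fits without WT 1 (-1.85, edgeR adjusted p 0.00674) and without WT 2 (-2.37, edgeR adjusted p 0.000746).

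Within the fibroblast gate, the target genes Gli1, Hhip and Ptch1 had a higher CPM in the cells without mesothelial markers in each of the 4 libraries. Marked cells of GOF still held 79 of its 320 Ptch1 UMIs. In WT libraries 25 of 25 fibroblast Gli1 UMIs and 13 of 13 Hhip UMIs came from cells with none of the 6 mesothelial markers (Msln, Upk3b, Wt1, Lrrn4, Upk1b and Gpm6a). In the GOF library 10 of 42 Gli1 UMIs and 1 of 21 Hhip UMIs came from mesothelial-marked cells, which were at 3.10 CPM of Gli1 and 0.310 CPM of Hhip, against 25.7 and 16.1 CPM in the unmarked cells. Ptch1 was at 24.5, 50.2, 8.31 and 47.3 CPM in marked cells of GOF, WT 1, WT 2 and WT 3, against 194, 106, 111 and 275 CPM in unmarked ones. Smo lay closer together, at 41.8, 70.3, 32.1 and 47.3 CPM in marked cells and 46.6, 59.9, 30.2 and 42.3 CPM in unmarked cells of the same libraries. The split was made after the markers were seen, and marked cells were not tested against unmarked ones. Marked cells were also deeper in each library. In GOF they held 3227776 UMIs in 225 cells, against 1245395 UMIs in 242 unmarked cells. The part of depth was not tested.

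**Figure D3:**
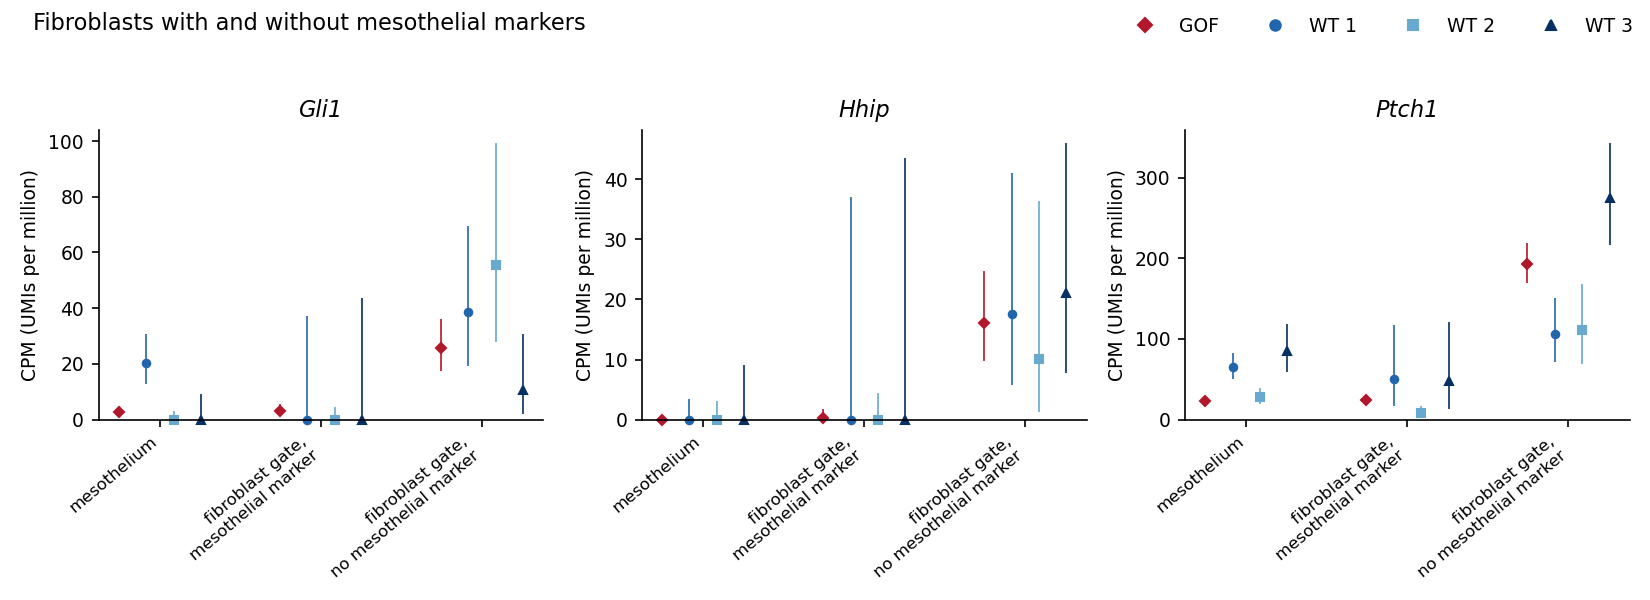
CPM of Gli1, Hhip and Ptch1 in mesothelium and in the fibroblast gate divided by whether a cell had a UMI of any of 6 mesothelial markers, with exact Poisson 95% intervals, for the GOF library (red) and the WT libraries (blue). In each of the 4 libraries the unmarked fibroblasts have the highest value of all 3 genes, and Hhip is 0 in mesothelium.

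Pi16, a marker of adventitial fibroblasts, was used to divide the fibroblasts once more. Ptch1 was at 126, 84.5, 90.2 and 232 CPM in Pi16-positive fibroblasts of GOF, WT 1, WT 2 and WT 3, against 44.8, 104, 16.0 and 220 CPM in Pi16-negative ones. It was higher in Pi16-positive cells in 3 of 4 libraries, and lower in WT 1. The log2 difference was 0.95 (SE 0.37, edgeR adjusted p 0.145), and 0 of 2 tested genes passed, where 10.9% of all tested genes did. Without WT 1 both Ptch1 (1.17, edgeR adjusted p 0.0494) and Gli1 (2.39, edgeR adjusted p 0.00500) passed. With no filter on low counts Gli1 differed by 1.90 (edgeR adjusted p 0.00609), Hhip by 2.52 (edgeR adjusted p 0.0183) and Ptch1 by 0.82 (edgeR adjusted p 0.0449). The Gli1 and Ptch1 values moved with the mesothelial markers: among fibroblasts without them, the pooled Gli1 ratio, Pi16-positive over Pi16-negative, was 0.639 (0.295 to 1.47) in GOF and 1.60 (0.668 to 4.12) in WT, against 4.51 (2.27 to 9.46) and 4.58 (1.91 to 11.8) over all fibroblasts, and the Ptch1 difference turned to -0.81 (edgeR adjusted p 0.214). Hhip among those fibroblasts had a pooled ratio of 0.502 (0.189 to 1.42) in GOF and of 10.8 (1.60 to 463) in WT, where 12 of 13 UMIs were in Pi16-positive cells.

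The GOF library was next compared with WT in the receiving types. In fibroblasts 0 of 6 tested genes passed, where 3.07% of all tested genes did. Ptch1 was at 71.5 CPM in GOF fibroblasts against 91.3, 27.9 and 222.5 CPM in WT 1, WT 2 and WT 3 (log2 difference -0.76, SE 0.89, edgeR adjusted p 0.751). Gli1 was at 9.39 CPM in GOF against 28.7, 10.6 and 8.14 CPM in WT (-0.84, SE 0.79, edgeR adjusted p 0.684). Hhip was at 4.69 CPM in GOF against 13.0, 1.92 and 16.3 CPM in WT (-1.10, SE 1.41, edgeR adjusted p 0.773). For all 3 targets the GOF value lay inside the WT range. The low end of the Hhip range was 2 UMIs in WT 2, below its floor of 2.88 CPM. The limit from intron length given below applies to Ptch1 and Hhip too. Among fibroblasts without mesothelial markers the GOF value was also inside the WT range for each of the 3 targets. Ptch1 was at 194 CPM against 106 to 275 CPM, and Gli1 at 25.7 CPM against 10.6 to 55.4 CPM. Hhip was at 16.1 CPM against 10.1 to 21.1 CPM, with the low end again 2 UMIs in WT 2, below its floor of 15.1 CPM. The Ptch1 difference among these cells was 0.03 (SE 0.53, edgeR adjusted p 0.975).

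Gli3 and Gli2 were above all WT values in GOF fibroblasts. Gli3 was at 70.2 CPM in GOF against 31.3, 14.4 and 16.3 CPM in WT 1, WT 2 and WT 3 (log2 difference 1.66, SE 0.48, edgeR adjusted p 0.117). Gli2 was at 26.6 CPM in GOF against 5.22, 2.88 and 10.9 CPM in WT (2.10, SE 0.75, edgeR adjusted p 0.202). Neither passed with all libraries in the fit; Gli3 passed without WT 1 (edgeR adjusted p 0.0196) and without WT 2 (edgeR adjusted p 0.0341). Both genes have very long introns, 257 kb and 213 kb, and in fibroblasts the GOF minus WT difference of all tested genes climbed with intron length, with a median of -0.43 among the genes with the shortest introns and 1.59 among those with the longest, of 10 equal classes. Set against the median of genes of like intron length, Gli3 differed by 0.07 and Gli2 by 0.51, both less than their standard errors. The file headers name different Cell Ranger versions for the GOF and WT matrices. Whether intronic reads were counted is not given in the sources used here. A change in counting and the genotype therefore cannot be told apart for Gli3 and Gli2. The same holds for the targets Ptch1 and Hhip, whose introns sum to 51.1 kb and 83.1 kb. In the classes with median lengths nearest to theirs, the median difference was 0.37 and 0.65. Their values inside the WT range thus do not show that they were unchanged.

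**Figure D4:**
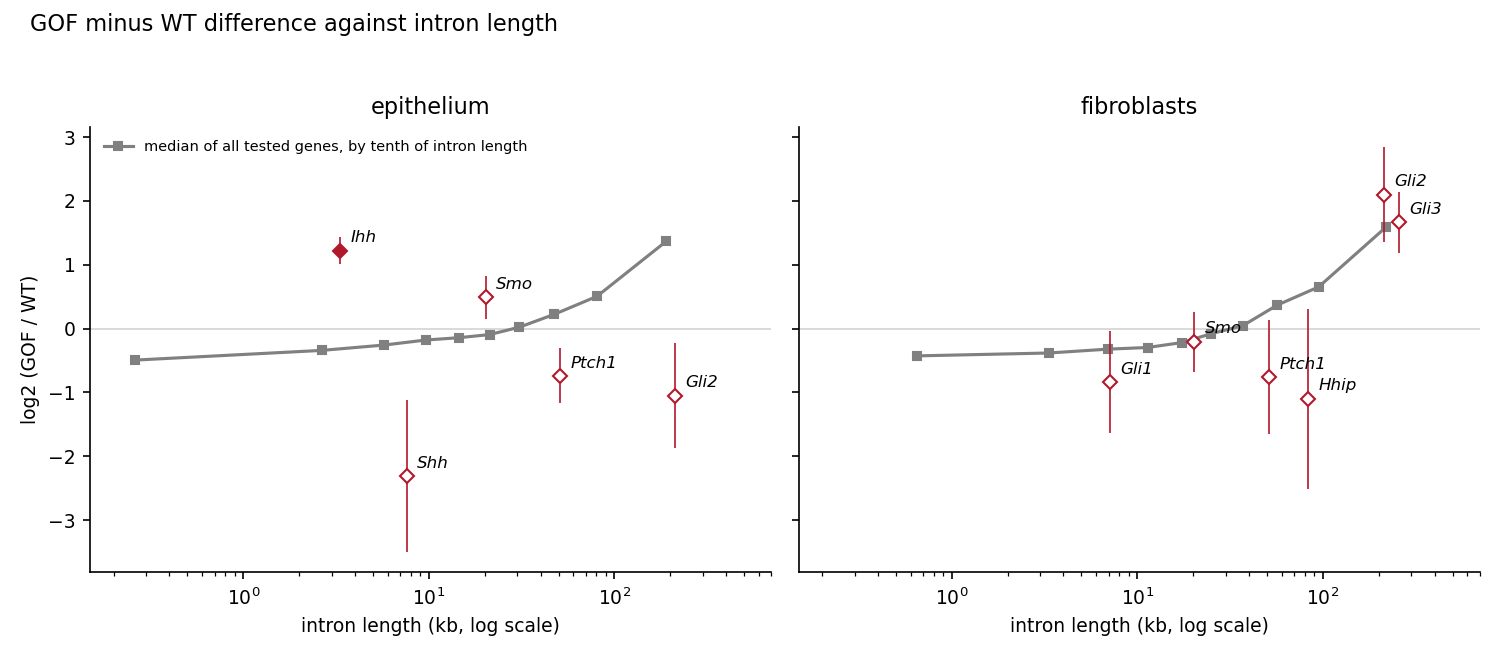
GOF minus WT log2 difference ± SE of the tested genes (red diamonds, filled where the edgeR adjusted p was under 0.05) against intron length in kb on a log axis, in epithelium and fibroblasts; grey squares are the median of all tested genes in 10 classes of intron length. Gli2 and Gli3 in fibroblasts lie within 1 SE of the grey line, while Ihh in epithelium lies above it.

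Ihh has 3.31 kb of intron and lies at the other end of that trend. Against genes of like intron length its difference in epithelium was 1.56, and among genes whose introns sum to 5 kb or less it was 1.63 (SE 0.22, edgeR adjusted p 0.0386).

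The receiving genes in epithelium did not pass either. Ptch1 was at 20.5 CPM in GOF epithelium against 18.1, 25.7 and 36.7 CPM in WT 1, WT 2 and WT 3 (log2 difference -0.74, SE 0.43, edgeR adjusted p 0.275), and Smo at 23.1 CPM against 14.9, 14.9 and 8.06 CPM (0.49, SE 0.34, edgeR adjusted p 0.350). The GOF value was inside the WT range for Ptch1 and above it for Smo. Gli2 was at 0.683 CPM in GOF against 0.623, 1.47 and 1.37 CPM in WT (-1.05, SE 0.82, edgeR adjusted p 0.410). In epithelium too the median difference of all tested genes rose with intron length, from -0.495 in the shortest class to 1.36 in the longest. Gli2 has 213 kb of intron and Ptch1 51.1 kb, so a change in counting and the genotype cannot be told apart for them here. Gli1 had 3 UMIs in GOF epithelium against 2, 1 and 1 in WT 1, WT 2 and WT 3, and Hhip 1 UMI against 0, 1 and 0. In tuft cells Smo (0.78, edgeR adjusted p 0.357) and Ptch1 (-0.68, edgeR adjusted p 0.294) did not pass.

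In mesothelium 0 of 5 tested genes passed, where 5.73% of all tested genes did. Ptch1 was at 22.9 CPM in GOF mesothelium against 64.9, 27.5 and 85.5 CPM in WT 1, WT 2 and WT 3, below all WT values (log2 difference -1.46, SE 0.56, edgeR adjusted p 0.191). Ptch1 passed without WT 1 (edgeR adjusted p 0.0369) and without WT 2 (edgeR adjusted p 0.00510). Gli3 was at 42.1 CPM against 12.1, 17.5 and 17.1 CPM (1.30, SE 0.39, edgeR adjusted p 0.0964), above all WT values as in fibroblasts. It passed without WT 2 (edgeR adjusted p 0.0237). Its introns sum to 257 kb, and no comparison with genes of like intron length was made in mesothelium. A change in counting and the genotype cannot be told apart for Gli3 here either. Gli1, Gli2 and Smo differed by -1.68 (SE 1.68), 0.85 (SE 0.70) and -0.46 (SE 0.41), with edgeR adjusted p from 0.576 to 0.662. None of the 9 genes could be tested in lymphatic endothelium, blood endothelium, macrophages or neutrophils, where 17.9%, 12.1%, 9.51% and 3.6% of tested genes were called.

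**Figure D5:**
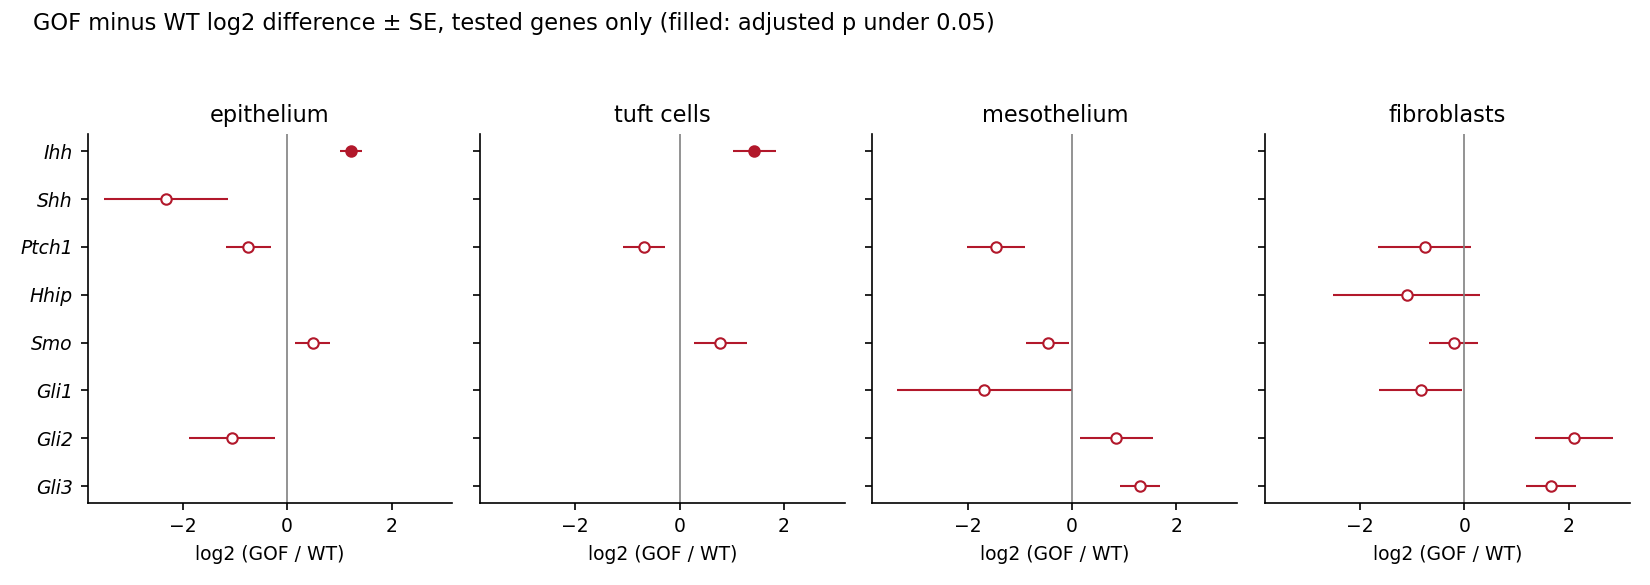
GOF minus WT log2 difference ± SE for each of the genes that could be tested, in epithelium, tuft cells, mesothelium and fibroblasts; filled circles have an edgeR adjusted p under 0.05. Of the genes drawn, Ihh is the one filled, at 1.22 in epithelium and 1.43 in tuft cells.

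Whether the GOF difference itself differed between fibroblasts and epithelium was asked with an interaction term, in a model blocked by library. None of the 8 genes that entered passed, where 0.7% of all tested genes did. For those with at least 5 WT UMIs in both types the interaction was 0.20 for Ptch1 (SE 0.58, edgeR adjusted p 1.0), -0.77 for Smo (SE 0.53, edgeR adjusted p 1.0) and 3.19 for Gli2 (SE 1.07, edgeR adjusted p 0.300).

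The other genes of the pathway were followed by list. Between WT fibroblasts and epithelium, where 15.9% of all tested genes were higher and 15.6% lower, 4 of 4 tested coreceptors were higher in fibroblasts, with a list median of 5.68 on the log2 scale against -0.07 for all tested genes. Gas1 was at 386, 179 and 190 CPM in fibroblasts of WT 1, WT 2 and WT 3, against 0.801, 2.76 and 0.686 CPM in epithelium (log2 difference 7.55, SE 0.54, edgeR adjusted p 5.03e-06). Cdon and Boc, which like Gas1 help Ptch1 bind ligand, were higher by 3.53 (SE 0.40, edgeR adjusted p 8.37e-05) and 3.81 (SE 0.36, edgeR adjusted p 2.73e-05). In the list of ligand release and processing, 2 of 2 tested genes were higher in fibroblasts, among them Gpc3, a glypican that competes for ligand (8.83, SE 0.55, edgeR adjusted p 2.47e-06). Of 19 tested genes of signal transduction and Gli control, 1 was higher and 1 lower. Of 10 tested mesenchymal target genes, 5 were higher and 3 lower; Osr1 (11.09, SE 0.44, edgeR adjusted p 1.09e-06) and Igfbp3 (9.71, SE 0.75, edgeR adjusted p 7.39e-06) led.

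Between WT mesothelium and fibroblasts, where 9.41% of all tested genes were called, Gas1 (log2 difference 1.29, SE 0.19, edgeR adjusted p 0.00228) and the endocytic receptor Lrp2 (2.12, SE 0.46, edgeR adjusted p 0.0185) were the 2 of 4 tested coreceptors that were higher in mesothelium. Igfbp3 (-3.26, SE 0.25, edgeR adjusted p 4.23e-05) and Nr2f2 (-1.46, SE 0.30, edgeR adjusted p 0.0139) were the 2 of 10 tested target genes that were lower. Igfbp3 was at 36.2, 10.0 and 73.3 CPM in mesothelium of WT 1, WT 2 and WT 3, against 428, 59.6 and 708 CPM in fibroblasts. Between Pi16-positive and Pi16-negative fibroblasts of the whole gate 10.9% of tested genes were called. Gpc3 (1.87, SE 0.31, edgeR adjusted p 0.00581) and Boc (1.49, SE 0.34, edgeR adjusted p 0.0212) were higher in Pi16-positive cells. Without mesothelial-marked cells 2.87% of tested genes were called, and values of Gpc3 and Boc among those cells are not given here.

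In GOF epithelium, where 14.6% of all tested genes were called, 1 of 4 tested genes of ligand release was higher than in WT, 1 of 4 coreceptors, 1 of 9 target genes, and 4 of 20 genes of transduction, of which 1 more was lower. Cdon was at 25.3 CPM in GOF epithelium against 8.57, 9.20 and 6.51 CPM in WT 1, WT 2 and WT 3 (log2 difference 1.27, SE 0.23, edgeR adjusted p 0.0243). Prkaca, a catalytic subunit of the kinase that restrains the Gli factors, was at 22.2 CPM in GOF against 31.3, 32.7 and 31.7 CPM in WT (-0.89, SE 0.19, edgeR adjusted p 0.0389). Ccnd2, a cyclin and also a known Wnt-responsive gene, was at 437 CPM against 101, 104 and 73.4 CPM (1.87, SE 0.22, edgeR adjusted p 0.00717). The others named were Gpc6 (2.97, SE 0.35, edgeR adjusted p 0.00752), a glypican, Btrc (1.13, SE 0.20, edgeR adjusted p 0.0216), the ubiquitin ligase subunit that sends Gli factors to processing, and Dync2h1 (1.19, SE 0.26, edgeR adjusted p 0.0397), the motor that returns proteins from the tip of the cilium. Intron lengths of these list genes were not examined, and the trend with intron length given above applies to them. In tuft cells, with 15.6% of all tested genes called, Ccnd2, Dync2h1, Sufu, Btrc and Cdon were higher and Prkaca was lower (-1.38, SE 0.36, edgeR adjusted p 0.0143). In GOF fibroblasts, with 3.07% called, Gpc6 alone passed among the listed genes (4.11, SE 0.87, edgeR adjusted p 0.0448), and 0 of 10 tested target genes did. In GOF mesothelium, with 5.73% called, Ccnd1, a cyclin, was at 120 CPM against 26.9, 33.3 and 22.0 CPM in WT 1, WT 2 and WT 3 (1.94, SE 0.34, edgeR adjusted p 0.0127), and Gpc6 was at 25.1 CPM against 0 in all WT libraries. In GOF macrophages, with 9.51% called, Ccnd2 (3.42, SE 0.40, edgeR adjusted p 0.00116) and Cdk6 (1.34, SE 0.37, edgeR adjusted p 0.0479) were the 2 of 5 tested target genes that were higher. Between fibroblasts and epithelium the GOF difference of Ccnd2 differed by -2.64 (SE 0.53, edgeR adjusted p 0.00861).

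The genes whose levels were most like those of Ihh, Gli1 and Hhip were ranked over 41 sums of 12 cell types, as a description in which sums of 1 library share its depth. For Ihh they were Dab1 (Pearson r of log2(CPM + 1) 0.786), Slc44a3, Foxa3, Fermt1 and Myo5c, the last at 0.760. For Gli1 they were Islr (0.905), Fam171b, Ogn, Tbx2 and Ccdc8 (0.848). For Hhip they were Tspan11 (0.972), Slc6a2, Npr3, C7 and Msc (0.935). Sums of the GOF library were part of each ranking, and the part of the trend with intron length in it was not tested.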

How the data were processed

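Dissociated cells were profiled with 10x Chromium 3′ chemistry in 1 GOF and 3 WT libraries. The deposited values are raw UMI counts per gene and barcode, made by the authors with Cell Ranger 7.1 on mm10 per the submitters' processing notes; the file headers name 7.0.0 (GOF) and 3.0.2 (WT). Totals were 113596685 UMIs in GOF and 43737469, 17358894 and 9558637 in WT 1, WT 2 and WT 3. Barcodes passed with 500 or more genes and a mitochondrial share up to 25%, less the top Scrublet (scanpy 1.11.5) scores at 0.8% per 1000 barcodes, since its own threshold marked 0 to 283. Types were gated by raw markers; genes were matched by Ensembl ID. Counts were summed per library and type and tested with edgeR 4.0.16 (quasi-likelihood, TMM, filterByExpr, Benjamini-Hochberg over all tested genes, threshold 0.05) in R 4.3.3, with the library as a block for comparisons within libraries. DESeq2 1.42.0 and limma 3.58.1 served as alternatives, as did other gates, filters and left-out libraries. Intervals are exact (Poisson or Clopper-Pearson, 95%) and, like the floor of 3 counts, cover counting error only. The fits were tested on simulated data. Gene positions come from GENCODE vM21 and promoters from RefSeq (GRCm38.p6). The members were given by name; of the lists, at most 6 genes per comparison are named, by adjusted p. Members and lists were chosen with earlier results of these data known.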

Additional observations from a re-analysis of the deposited data

Results flagged for a closer look

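Smo differed in direction between the GOF and the WT libraries when gland mucous epithelial cells were set against other epithelial cells. Gland mucous cells of the GOF library held 22.6 CPM against 24.1 CPM in its other epithelial cells, a difference of -1.55 CPM; the ratio of 0.935 had a counting interval of 0.835 to 1.05, which includes 1. In WT 1, WT 2 and WT 3 gland mucous cells held 18.0, 15.7 and 11.2 CPM against 13.9, 14.2 and 5.56 CPM, so that each WT library went the opposite way. The difference between the libraries was not tested, and it rests on 1 GOF library.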

How the results depend on the processing

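Of the 9 genes, the number past the threshold changed as follows; where no value shows it, the cause was not tested. WT fibroblasts minus epithelium called 5, then 6 with no filter on low counts, 6 without mesothelial-marked fibroblasts and 1 at most 10% mitochondrial UMIs. WT mesothelium minus fibroblasts called 0, and 1 with no filter on low counts, with the looser gate and without mesothelial-marked fibroblasts (chosen after seeing the data); with 1 library left out it called 0 to 1. WT smooth muscle minus fibroblasts called 0, then 2 with no filter, 1 with the looser gate, 1 without marked fibroblasts and 0 to 1 with 1 library left out. WT endothelium minus fibroblasts called 0, then 4 with no filter, 1 each with the stricter gate, looser gate, no doublet removal and without marked fibroblasts, and 0 to 2 with 1 library left out. GOF minus WT called 1 in epithelium (0 to 1 with 1 library left out), 0 in fibroblasts (0 to 1), 0 in mesothelium (0 to 2, and 1 with no filter) and 1 in tuft cells (0 to 1, and 0 with DESeq2 and the stricter gate). Pi16-positive minus Pi16-negative called 0, 3 with no filter and 0 to 2 with 1 library left out. Log2 differences changed sign as follows. With 1 library left out, Gli3 in WT mesothelium minus fibroblasts ranged from -0.50 to 0.14, Ptch1 in GOF minus WT fibroblasts from -1.26 to 0.19, Smo there from -0.43 to 0.017, the Ptch1 interaction from -0.44 to 0.64, Smo by Pi16 from -0.040 to 0.35, and Ptch1 in gland cells from -0.081 to 0.051. At most 10% mitochondrial UMIs turned Shh in GOF minus WT epithelium (1.11), Ptch1 in GOF minus WT fibroblasts (0.18) and Ptch1 in gland cells (0.060). Without marked cells Ptch1 was 0.034 in GOF minus WT fibroblasts and -0.81 by Pi16. Against like introns Smo in GOF minus WT fibroblasts was 0.015, and with limma Gli1 in mesothelium was 0.10. The share of epithelial cells with an Ihh UMI was 33.1% in GOF and 14.1%, 11.8% and 8.42% in WT unthinned, and 4.59% in GOF and 1.50%, 2.29% and 1.49% in WT at 1000 UMIs; that of fibroblasts with a Ptch1 UMI was 14.5% in GOF and 16.7%, 6.34% and 7.02% in WT 1, WT 2 and WT 3 at 2000 UMIs, 26.3% in GOF and 23.9%, 10.5% and 25.1% in WT unthinned, and 10.8% in GOF and 13.0%, 5.50% and 19.5% in WT at 1000 UMIs. Over all genes, GOF minus WT epithelium called 2263, against 4883 with limma, 1469 at most 10% mitochondrial UMIs, 116 of genes with at most 5 kb of intron and 654 to 2121 with 1 library left out; without TMM the median gene moved by 0.36 and the split from 1703 higher and 560 lower to 2883 and 289. In fibroblasts the count was 283, against 101 with limma, 748 with no filter, 560 without marked cells and 8 of short-intron genes; in tuft cells 1573, against 538 with DESeq2. WT fibroblasts minus epithelium called 3569 genes, against 1744 at most 10% mitochondrial UMIs. The replicate block within libraries mattered for counts: without it, mesothelium minus fibroblasts called 283 genes in place of 692, Pi16 4 in place of 405, and gland cells 0 in place of 114, and no call of the 9 genes changed. GOF and WT could not be paired, because the labels used here link no WT library to the GOF library. Not run, for want of cells, were 6 combinations of a gate or mitochondrial limit with smooth muscle, tuft cells, blood endothelium or neutrophils.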
